A study of Homo sapiens with 4 samples.

Results

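The 10 genes described here are p53 targets that act in stress responses, metabolism and autophagy, namely TP53INP1, DRAM1, SESN1, PHLDA3, TIGAR, FDXR, TP53I3, BTG2, CCNG1 and ZMAT3. They were taken by gene symbol from the 15357 genes that the expression tables list, and all 10 were found. RNA-seq was measured in RKO cells, a human colorectal cancer line, after lentiviral infection for stable expression of an shRNA. The 2 vector samples carried a control shRNA, and the 2 shCHD7_2 samples carried the second shRNA against CHD7, a chromatin remodeller of the chromodomain helicase family. The 4 libraries therefore share the line, the viral vector and selection of poly(A) RNA on oligo-dT beads, and they differ in a single hairpin, with no other hairpin and no re-expression of CHD7 in the tables. No label says whether the 2 samples of a group were separate infections or cultures, so the p-values measure the spread between these samples, which may be technical.

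p53 is a transcription factor that is held at a low level in unstressed cells and accumulates after DNA damage, oncogene activity or nutrient shortage. It binds DNA as a tetramer, at response elements built from a pair of decameric half-sites, and raises the transcription of its targets. Besides the genes that arrest the cell cycle or kill the cell, its targets include genes that slow growth signalling, shift glucose use, limit oxidative damage and promote autophagy, the recycling of cell contents in lysosomes. Several of the genes described here belong to that second set, while BTG2, ZMAT3 and CCNG1 act on RNA or on the cell cycle.

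The letters around the transcription starts of these genes were searched for the p53 response element, in RefSeq windows on GRCh38.p14 that run from 250 bases before a start to 50 bases after it. RefSeq windows were matched for 8 of the 10 genes. TP53INP1 and PHLDA3 had no entry. The half-site, named the p53 decamer consensus, reads the same on both strands. It occurred in 2 of the 8 genes, SESN1 and FDXR, beside 7.5% of the 9455 tested genes with a window. Among other known p53 targets, a list taken up below, it occurred in 5 of 25 genes with a window. The 8 genes are too few to tell these shares apart. The best match of each gene to 2 adjoining half-sites is given by gene, to show how near each start comes to the element. Capitals mark the bases that fit the consensus, lower case marks those that depart from it, and each sequence is written 5′ to 3′ on the strand of the gene.
SESN1: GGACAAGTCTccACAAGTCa
FDXR: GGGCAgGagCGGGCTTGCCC
DRAM1: cAACAAGCCCGGGCAgcCCg
BTG2: GGGaAAGTCCGGGCAgagCC
ZMAT3: GGGCcTGCTCcGcCAAGCaC
TP53I3: AGGgTgGTTCtGctTAGCCC
TIGAR: GGcCTcGCCCGGcCcTGagT
CCNG1: GGGgAAtTTgAGGCcAGaTa

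The SESN1 match departed from the 20-base element at 3 bases and begins 49 bases before a start, at chr6:109009018-109009037 on the minus strand, inside an intron of longer SESN1 transcripts in GENCODE 29. The FDXR match also departed at 3 bases and begins 21 bases before a start, at chr17:74872996-74873015 on the minus strand, within an annotated FDXR exon. Matches this close or closer occurred in 4.25% of the 13819 windows of tested genes. SESN1, FDXR, ZMAT3 and CCNG1 had several windows each, and the best match was kept. The shares given here are by window, and the share by gene was not counted. The DRAM1 match (chr12:101877550-101877569, plus strand, exonic), the BTG2 match (chr1:203305505-203305524, plus strand, exonic) and the ZMAT3 match (chr3:179071873-179071892, minus strand, exonic) departed at 4 bases, as at least as good a match did in 22.11% of windows. The TP53I3 match (chr2:24084881-24084900, minus strand, exonic) departed at 5 bases. For TIGAR (chr12:4321108-4321127, plus strand, intronic) and CCNG1 (chr5:163437409-163437428, plus strand, before the annotated gene) the best match departed at 6 bases, and 96.55% of windows held one at least as good. These matches describe the letters in a short window. They are not measured binding sites, and p53 elements may lie outside the windows.

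All 10 genes had a higher mean level in the shCHD7_2 samples than in the vector samples, and 6 of them rose at an adjusted p under 0.05 in the fit over all genes. TP53INP1, a stress-induced regulator of p53 activity and autophagy, rose 3.27-fold. FDXR, BTG2, TP53I3, ZMAT3 and TIGAR rose by between 1.33-fold and 1.49-fold. SESN1, PHLDA3, DRAM1 and CCNG1 did not pass the test, with fitted folds between 1.08 and 1.16. The median log2 fold change of the 10 genes was 0.43, and that of all 11955 genes tested was 5.57e-04. The test was the quasi-likelihood F-test of edgeR on the estimated counts, and p-values were adjusted over all 11955 genes by the Benjamini-Hochberg method.

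Of all genes tested, 4.94% were higher at an adjusted p under 0.05 and 6.54% were lower, and of the 10 genes 6 were higher and 0 lower. With a fold of at least 1.5 asked for as well, 1.51% of all genes were called higher, and 1 of the 10, TP53INP1, was called. In 8 of the 10 genes both shCHD7_2 samples lay above both vector samples, as they did in 26.4% of all genes. All 10 passed the filter on low counts with at least 116 estimated counts in each of the 4 samples, so none entered the test through its higher group alone. With library totals in place of TMM scaling, the genes past the adjusted p split into 878 higher and 608 lower, against 591 and 782 here, and again 6 of the 10 genes were past it.

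**Figure D1:**
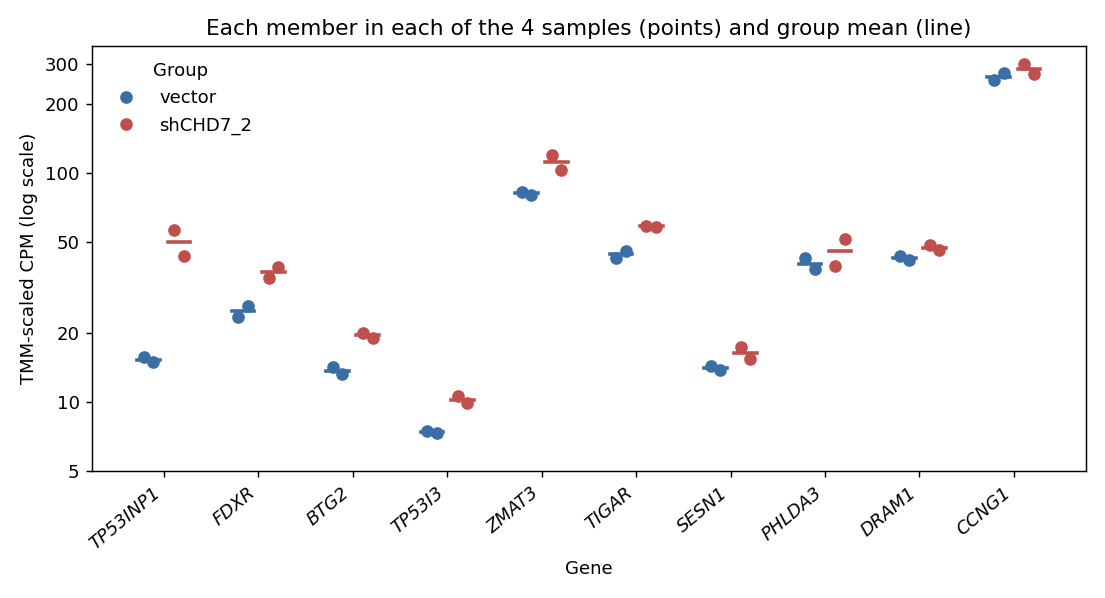
Expression of each of the 10 genes in each sample, as TMM-scaled CPM on a log axis, with vector samples in blue and shCHD7_2 samples in red. Points are samples, 2 per group, and short lines are group means. Blue and red points are apart for 8 genes and overlap for PHLDA3 and CCNG1, and the widest gap is that of TP53INP1, from 15.3 to 50.1 CPM on average.

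The libraries held between 15734679 and 16068650 estimated counts. The hairpin's target was checked first. CHD7 measured 85.4 and 91.0 CPM in the vector samples and 55.5 and 50.1 CPM in the shCHD7_2 samples, a log2 fold change of -0.74 (SE 0.088) with an adjusted p of 4.2e-06 from edgeR. Of 6 epithelial markers in the tables, EPCAM, KRT8 and KRT18 were above 1 FPKM, while the defining adhesion genes CDH1 and CLDN4 and the splicing factor ESRP1 were at or near 0. Of 4 intestinal markers CDX2 alone was above 1 FPKM. Summed FPKM ran from 70.8 to 76.1 in the vector samples and from 77.0 to 84.6 in the shCHD7_2 samples for the epithelial list, and from 4.75 to 5.25 and 4.88 to 5.92 for the intestinal list. The fibroblast list, with 2 of 8 markers in the tables, summed to at most 0.1 FPKM in any sample. Of the leukocyte list 2 of 6 were in the tables, LYZ was near 0, and CD68, a lysosomal protein gene, carried a sum of 495 to 530 FPKM in the vector samples and 602 to 611 in the shCHD7_2 samples. No marker passed the test, the smallest adjusted p being that of CD68 (log2 fold change 0.20, adjusted p = 0.062, edgeR), and the part that marker levels have in the results was not tested.

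Among the genes of autophagy and the lysosome, TP53INP1 was the clearest. It encodes a small protein that binds LC3 family proteins and takes part in the phosphorylation of p53, and lies on chromosome 8 from 94925972 to 94949411 of GRCh38, on the minus strand in GENCODE 29. Its level, in counts scaled to library size (CPM), was 15.7 and 14.9 CPM in the vector samples and 56.6 and 43.6 CPM in the shCHD7_2 samples. The lower shCHD7_2 sample was well above both vector samples, and the shCHD7_2 samples were also farther apart from each other than the vector samples were. On the length-normalized scale the level went from 2.76 ± 0.106 to 9.28 ± 1.74 FPKM (mean ± SD, n = 2 each). On the log2 scale the change was 1.71 (SE 0.12, 95% confidence interval 1.46 to 1.95), with an adjusted p of 1.03e-09 from edgeR. By p it ranked 10 among the 11955 genes tested. TP53INP1 is among the genes that the study itself picked out of these samples, so its rise here is not independent of that choice.

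DRAM1 encodes a lysosomal membrane protein that p53 uses to induce autophagy (chromosome 12, 101877351 to 102012130, plus strand). Its level was 43.2 and 41.9 CPM in the vector samples and 48.3 and 46.1 CPM in the shCHD7_2 samples. The samples did not overlap between the groups, but the gap was small. The fitted log2 change was 0.15, with a 95% confidence interval from -0.03 to 0.34 and an adjusted p of 0.305 from edgeR. On the fold scale the interval runs from 0.976 to 1.26.

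Next come 2 genes that restrain growth signalling. SESN1 encodes sestrin 1, which binds the GATOR2 complex and lowers mTORC1 activity when leucine is scarce (chromosome 6, 108986437 to 109094819, minus strand). Its level was 14.4 and 13.9 CPM in the vector samples and 17.5 and 15.4 CPM in the shCHD7_2 samples. Both shCHD7_2 samples were above both vector samples, one of them only slightly. The log2 fold change was 0.21 (95% confidence interval -0.05 to 0.48) with an adjusted p of 0.309 from edgeR. An antisense gene shares 7.1% of its exon bases, and it is not in the tables.

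PHLDA3 encodes a pleckstrin-homology protein that competes with AKT for membrane phosphoinositides (chromosome 1, 201464383 to 201469237, minus strand). Its level was 42.5 and 37.9 CPM in the vector samples and 39.5 and 51.6 CPM in the shCHD7_2 samples. The groups overlapped, since the first shCHD7_2 sample lay between the 2 vector samples. On the log2 scale the change was 0.18 (95% confidence interval -0.05 to 0.41) with an adjusted p of 0.321 from edgeR. One library decided it, since the log2 fold change was 0.36 with an adjusted p of 0.0147 without the first shCHD7_2 sample and -0.03 with an adjusted p of 0.93 without the second. A non-coding gene of the same strand shares 19.1% of its exon bases.

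The 3 genes of metabolism all rose. TIGAR encodes a fructose-2,6-bisphosphatase that lowers glycolytic flux and leaves more glucose to the pentose phosphate pathway (chromosome 12, 4307763 to 4354593, plus strand). Its level was 42.6 and 45.6 CPM in the vector samples and 58.9 and 58.2 CPM in the shCHD7_2 samples. The shCHD7_2 samples were almost equal and clear of both vector samples. The fitted log2 change was 0.41 (SE 0.088) with an adjusted p of 0.00331 from edgeR, and without the first vector sample it was 0.36 with an adjusted p of 0.0736. Another GENCODE gene of the same strand shares 42.6% of the TIGAR exon bases and is not listed in the tables, so reads of the shared exons cannot be told apart here.

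FDXR encodes ferredoxin reductase, the mitochondrial enzyme that passes electrons from NADPH to ferredoxins for steroid and iron-sulfur cluster synthesis (chromosome 17, 74862497 to 74873031, minus strand). Its level was 23.6 and 26.2 CPM in the vector samples and 34.99 and 39.04 CPM in the shCHD7_2 samples. The groups were apart by more than the spread within either. The log2 fold change was 0.57 (SE 0.10, 95% confidence interval 0.36 to 0.78) with an adjusted p of 5.66e-04 from edgeR. Its fold of 1.49 lay just under the 1.5 that the fold rule asks for. FDXR met that rule without the second vector sample (log2 fold change 0.65) or without the first shCHD7_2 sample (0.64).

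TP53I3, also known as PIG3, encodes a quinone oxidoreductase that takes part in the production of reactive oxygen species (chromosome 2, 24077433 to 24085861, minus strand). Its level was 7.47 and 7.35 CPM in the vector samples and 10.6 and 9.90 CPM in the shCHD7_2 samples, the lowest of the 10 genes in read depth with 116 to 170 estimated counts. The groups were apart, and the vector samples nearly equal. On the log2 scale the change was 0.47 (SE 0.15) with an adjusted p of 0.0479 from edgeR, just past the threshold. It did not pass in DESeq2 (log2 fold change 0.47, adjusted p = 0.269), nor when any 1 of the 4 libraries was left out, with edgeR adjusted p between 0.0622 and 0.251 at log2 fold changes of 0.41 to 0.52. FAM228B, a listed gene on the opposite strand, shares 3.5% of its exon bases.

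The remaining 3 genes act on RNA or on the cell cycle. BTG2 encodes an antiproliferative protein that recruits the CCR4-NOT deadenylase to mRNA (chromosome 1, 203305491 to 203309602, plus strand). Its level was 14.2 and 13.2 CPM in the vector samples and 20.02 and 19.11 CPM in the shCHD7_2 samples. The samples of each group lay close together and the groups were clearly apart. The fitted log2 change was 0.51 (SE 0.12) with an adjusted p of 0.00673 from edgeR, and without the second vector sample it was 0.47 with an adjusted p of 0.0948.

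ZMAT3 encodes a zinc finger protein that binds RNA and affects splicing and mRNA stability (chromosome 3, 179017223 to 179072279, minus strand). Its level was 82.8 and 80.4 CPM in the vector samples and 120 and 103 CPM in the shCHD7_2 samples. Both shCHD7_2 samples were above both vector samples, with the first the higher, as for TP53INP1. The log2 fold change was 0.45 (SE 0.088) with an adjusted p of 0.00138 from edgeR. ZMAT3 was the only one of the 10 genes with estimated counts that were not whole, such as 1284.88 in the first vector sample, as counts are when reads are shared out between genes.

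CCNG1 encodes cyclin G1, which directs the phosphatase PP2A to p53 regulators (chromosome 5, 163437569 to 163446151, plus strand). Its level was 254 and 274 CPM in the vector samples and 298 and 271 CPM in the shCHD7_2 samples. The groups overlapped. On the log2 scale the change was 0.11 (95% confidence interval -0.05 to 0.27) with an adjusted p of 0.395 from edgeR. It had the most reads of the 10 genes, 3941 to 4783 estimated counts, and the interval ends at a fold of 1.205.

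Levels were compared between genes on the FPKM scale, which divides by transcript length. In the vector samples CCNG1 was the highest at 116 FPKM, followed by PHLDA3 at 15.4, FDXR at 13.61, DRAM1 at 12.6 and ZMAT3 at 9.09 FPKM. TIGAR (5.39 FPKM), SESN1 (5.33 FPKM) and BTG2 (5.29 FPKM) followed, and these neighbours did not differ beyond the spread of their samples. TP53I3 at 4.70 FPKM and TP53INP1 at 2.76 FPKM were the lowest. In the shCHD7_2 samples CCNG1 again came first at 129 FPKM, FDXR came second at 21.2 FPKM and PHLDA3 next at 18.0 FPKM. TP53INP1 moved from the tenth place to the sixth, at 9.28 FPKM, and SESN1, at 6.51 FPKM, had the lowest mean. The samples of FDXR and PHLDA3 overlapped there, as did those of SESN1 and TP53I3, so the order of these neighbours was not beyond their spread.

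The ratio of an estimated count to its FPKM gives the transcript length that the authors' counting used, which moves when the mix of a gene's transcripts moves. Of 10956 genes 0 passed an adjusted p of 0.05 for this length in limma (734 had an unadjusted p under 0.05), so 0% is the background for the 10 genes, and none of them passed either. SESN1 was assigned 2598 and 2636 bases in the vector samples and 2547 and 2572 in the shCHD7_2 samples, a difference of -2.17%. FDXR was assigned 1807 and 1797 bases and then 1770 and 1767, a difference of -1.83%. The adjusted p was 0.736 for SESN1 and 0.552 for FDXR (limma). TP53I3 varied more between samples of a group than between groups, with 1530 and 1576 bases against 1640 and 1454. The other 7 genes differed by less than 1%.

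Family relatives were listed for each of the 10 genes but FDXR. Each relative was read beside the gene it is related to, to see whether the family moved with that gene. Of 20 relatives listed 19 were in the tables and 17 were tested. Among these 0 rose at an adjusted p under 0.05 and 1 fell (5.88%, against 11.5% of all genes), with a median log2 fold change of -0.03. The relative that fell was PFKFB4, which makes and degrades fructose-2,6-bisphosphate, the substrate of TIGAR. It measured 62.4 and 63.0 CPM in the vector samples and 40.9 and 43.9 CPM in the shCHD7_2 samples, a log2 fold change of -0.56 with an adjusted p of 1.29e-04 from edgeR. PFKFB2 (log2 fold change -0.03) and PFKFB3 (0.04) did not pass, and PFKFB1 was too low to test at 3 to 13 estimated counts.

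TP53INP2, the autophagy relative of TP53INP1, measured 77.4 and 75.8 CPM in the vector samples and 73.3 and 75.3 CPM in the shCHD7_2 samples, with a log2 fold change of -0.04 (95% confidence interval -0.22 to 0.13). Its interval lay wholly below that of TP53INP1. Of the 17 relatives tested, 5 had both shCHD7_2 samples above both vector samples and 7 had both below. Over the 11955 genes tested these counts were 3153 and 3265. For DRAM2 the log2 fold change was -0.16, for CCNG2 -0.19 and for ZMAT2 -0.17, and none of these passed the test. ZMAT1 (0.13), BTG1 (-0.10), BTG3 (0.04), TOB1 (0.19) and TOB2 (near 0) did not pass either, nor did CRYZ (-0.09) and VAT1 (-0.05), the quinone oxidoreductase relatives of TP53I3. SESN2, a further sestrin that is also counted among the other p53 targets, had a log2 fold change of 0.16 with a 95% confidence interval from -5.27e-04 to 0.33. SESN3 was too low to test, at 6 to 12 estimated counts. PHLDA1 measured 590 and 576 CPM in the vector samples and 586 and 576 CPM in the shCHD7_2 samples. PHLDA2, with 52.1 and 42.3 CPM against 50.5 and 62.0 CPM, repeated the pattern of PHLDA3, with the second shCHD7_2 sample the highest and the second vector sample the lowest (log2 fold change 0.25, adjusted p = 0.135, edgeR). Without the first vector sample its log2 fold change was 0.41 with an adjusted p of 0.0313, and without the first shCHD7_2 sample 0.39 with an adjusted p of 0.00454. Without the second vector sample it was 0.11 (adjusted p = 0.775) and without the second shCHD7_2 sample 0.0985 (adjusted p = 0.666, edgeR).

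**Figure D2:**
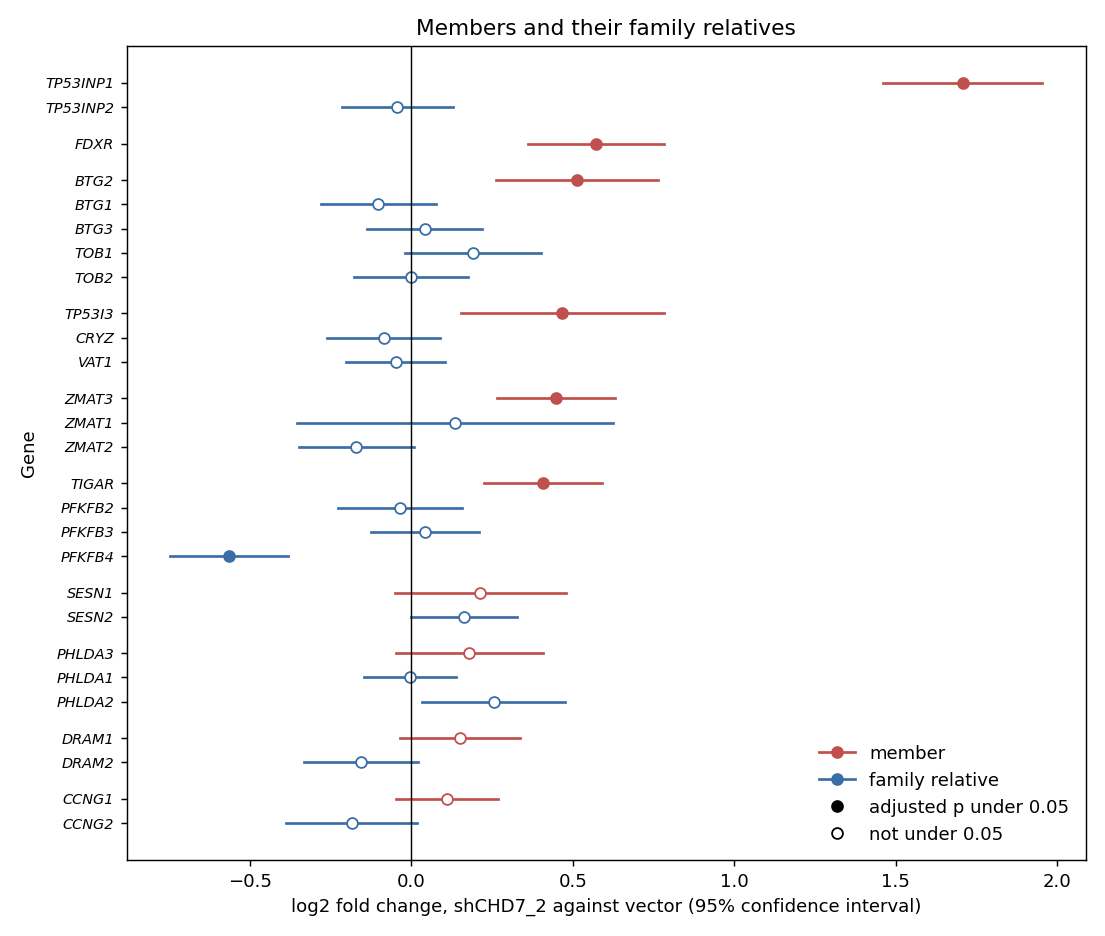
The log2 fold change of each of the 10 genes (red) and of its tested family relatives (blue), shCHD7_2 against vector, with 95% confidence intervals from edgeR. Filled points have an adjusted p under 0.05. The filled red points are the 6 genes that rose, and the single filled blue point is PFKFB4, at -0.56.

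Other known p53 targets were counted for comparison. Of 33 listed 32 were tested, and 16 rose and 0 fell at an adjusted p under 0.05, beside 4.94% and 6.54% of all genes. With a fold of at least 1.5 as well, 7 were called higher, beside 1.51% of all genes. The median log2 fold change of the 32 was 0.34, near the 0.43 of the 10 genes. Those with the smallest p were GDF15, CDKN1A, RRM2B and SPATA18. GDF15, a secreted stress cytokine, went from 42.6 and 33.9 CPM to 105 and 117 CPM, a log2 fold change of 1.54 (adjusted p 3.96e-10, edgeR). CDKN1A, the cyclin-dependent kinase inhibitor p21, went from 128 and 113 CPM to 244 and 252 CPM, a log2 fold change of 1.04. RRM2B, a ribonucleotide reductase subunit, had a log2 fold change of 0.75, and SPATA18, a mitochondrial quality control gene, one of 1.87 from 7 and 10 to 33 and 31 estimated counts. The study singled out CDKN1A and RRM2B from these same samples. The 10 genes and this list were also chosen with earlier results of these data known. Neither is therefore independent evidence of a direction. In log2 fold change the TP53INP1 difference was larger than that of GDF15, CDKN1A and RRM2B and smaller than that of SPATA18. The other 9 of the 10 genes were below all of these.

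The pathways in which the 10 genes act were then counted from lists of their core components, and 11.5% of all genes tested passed in either direction. In the autophagy list 34 genes were tested, 4 rose and 1 fell, with a median log2 fold change of 0.02. With both directions pooled this was 5 of 34, near that share. By direction, 4.94% of all genes rose and 6.54% fell. ATG2A, a lipid transfer protein of the growing autophagosome, went from 88.3 and 72.5 CPM to 113 and 116 CPM (log2 fold change 0.51, adjusted p = 6.01e-04, edgeR). GABARAPL1 rose by a log2 fold change of 0.48 and MAP1LC3B by 0.24, both encoding proteins of the LC3 family that TP53INP1 binds. PIK3R4, the regulatory subunit of the autophagy lipid kinase, fell from 57.5 and 60.2 CPM to 43.0 and 39.2 CPM (log2 fold change -0.52, adjusted p = 4.43e-04, edgeR). None of these reached a fold of 1.5. Without the second vector sample, a fit in which 607 genes in all passed, the log2 fold change was 0.37 for ATG2A (adjusted p = 0.059), 0.44 for GABARAPL1 (adjusted p = 0.0973) and 0.23 for MAP1LC3B (adjusted p = 0.338, edgeR). MAP1LC3B also did not pass without the first vector sample (0.25, adjusted p = 0.21) or the second shCHD7_2 sample (0.22, adjusted p = 0.0787).

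In the list of mTORC1 and the GATOR complexes, where SESN1 acts, 23 genes were tested, 0 rose and 2 fell. Its share of 8.7% was near the 11.5% of all genes. SEH1L, a subunit of GATOR2 and of the nuclear pore, went from 127 and 132 CPM to 91.0 and 87.4 CPM (log2 fold change -0.53, adjusted p = 8.32e-05, edgeR). RRAGC, a Rag GTPase that recruits mTORC1 to the lysosome, had a log2 fold change of -0.35, and without the second vector sample one of -0.26 (adjusted p = 0.321, edgeR). In the AKT list, the pathway of PHLDA3, 13 genes were tested, 7.69% passed and PIK3CB, a catalytic subunit of phosphoinositide 3-kinase, fell alone (log2 fold change -0.42, adjusted p = 0.00662, edgeR). It was -0.31 without the second vector sample (adjusted p = 0.178) and without the second shCHD7_2 sample (adjusted p = 0.0568).

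In the list of glycolysis and the pentose phosphate pathway, the setting of TIGAR, 10 genes were tested and 0 passed in edgeR, with a median log2 fold change of -0.13 and a range from -0.19 to 0.18. In the list of ferredoxin and iron-sulfur cluster genes, the setting of FDXR, 15 genes were tested and 13.3% passed, near the share of all genes. HSPA9, the mitochondrial chaperone of cluster assembly, fell from 1455 and 1589 CPM to 983 and 951 CPM (log2 fold change -0.65, adjusted p = 9.01e-07, edgeR) and was called. GLRX5, a cluster carrier, rose by a log2 fold change of 0.35, and without the first vector sample the value was 0.26 (adjusted p = 0.248, edgeR).

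In the list of CCR4-NOT and its partners, through which BTG2 acts, 14 genes were tested and 1 passed. That is 7.14%, beside 11.5% of all genes, and too few genes to tell the shares apart. CNOT7, the deadenylase subunit that BTG proteins bind, went from 152 and 163 CPM to 125 and 115 CPM (log2 fold change -0.39, adjusted p = 0.00216, edgeR), and without the second vector sample the log2 fold change was -0.34 (adjusted p = 0.0815). In the list of PP2A and cyclin G partners, the setting of CCNG1, 10 genes were tested, 1 rose and 2 fell, a share of 30%. The share of all genes was 11.5%, and 10 genes are again too few to tell the shares apart. PPP2R5C, a B56 subunit, had a log2 fold change of -0.44 (adjusted p = 5.12e-04, edgeR) and was not called at a fold of 1.5. For PPP2R1B, a scaffold subunit, the log2 fold change was -0.27, and for GAK, the cyclin G-associated kinase, it was 0.29. PPP2R1B (adjusted p 0.0413) and GAK (adjusted p 0.0216) were not called at a fold of 1.5, and neither passed the adjusted p without the first vector sample (0.114 and 0.127), the second vector sample (0.426 and 0.255) or the second shCHD7_2 sample (0.135 and 0.0892), all from edgeR, with log2 fold changes of -0.31 to -0.22 and 0.25 to 0.31.

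**Figure D3:**
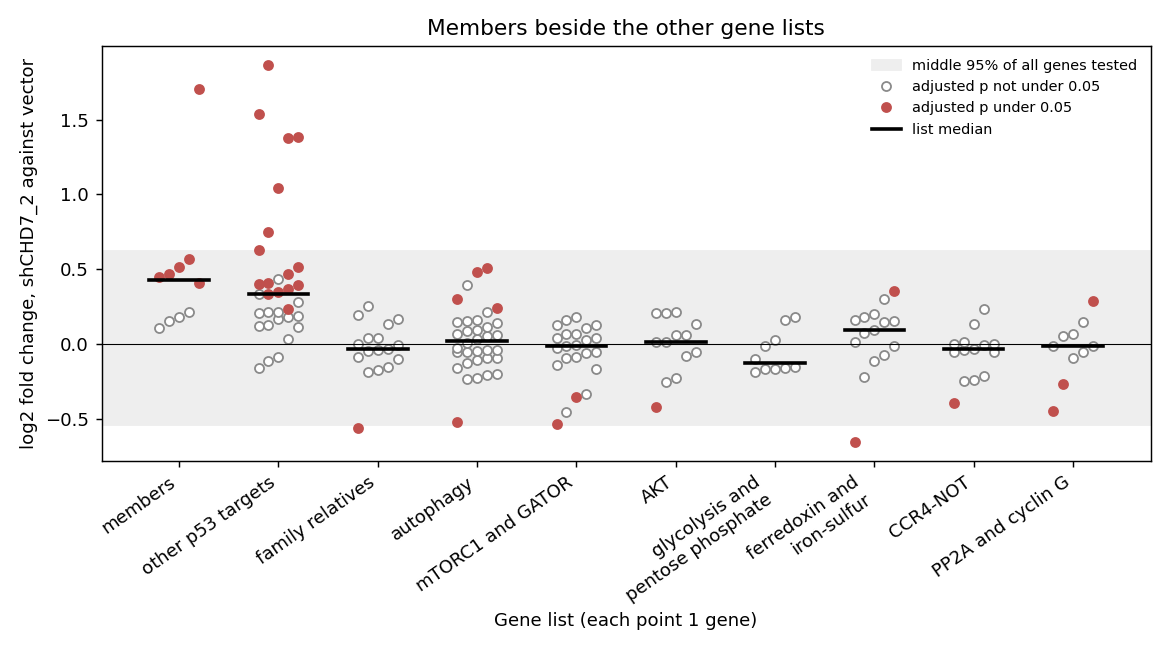
The log2 fold change, shCHD7_2 against vector, of every tested gene in each list, with red points for an adjusted p under 0.05 and black lines for list medians. The grey band holds the middle 95% of all genes tested, from -0.54 to 0.62. The medians of the 10 genes (0.43) and of the other p53 targets (0.34) stand above 0, and those of the remaining lists run from -0.13 to 0.09.

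The direction of the 10 genes was read under every setting tried, which covered other scalings, filters, tests and units and the removal of each library in turn. In 9 of the 10 genes the log2 fold change was above 0 under all 14 alternatives, and PHLDA3 alone turned. TP53INP1 kept a log2 fold change between 1.44 and 1.88. ZMAT3 ran from 0.33 to 0.56, both ends set by leaving out 1 of the shCHD7_2 samples. FDXR ran from 0.49 to 0.65, BTG2 from 0.47 to 0.56, TIGAR from 0.36 to 0.46, and TP53I3 from 0.41 to 0.52. Of the 4 genes that did not pass, SESN1, DRAM1 and CCNG1 passed under none of the 14. With 1 library left out SESN1 ran from 0.11 without the first shCHD7_2 sample to 0.30 without the second, CCNG1 from 0.0371 to 0.18 without the same samples, and DRAM1 from 0.11 to 0.18.

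**Figure D4:**
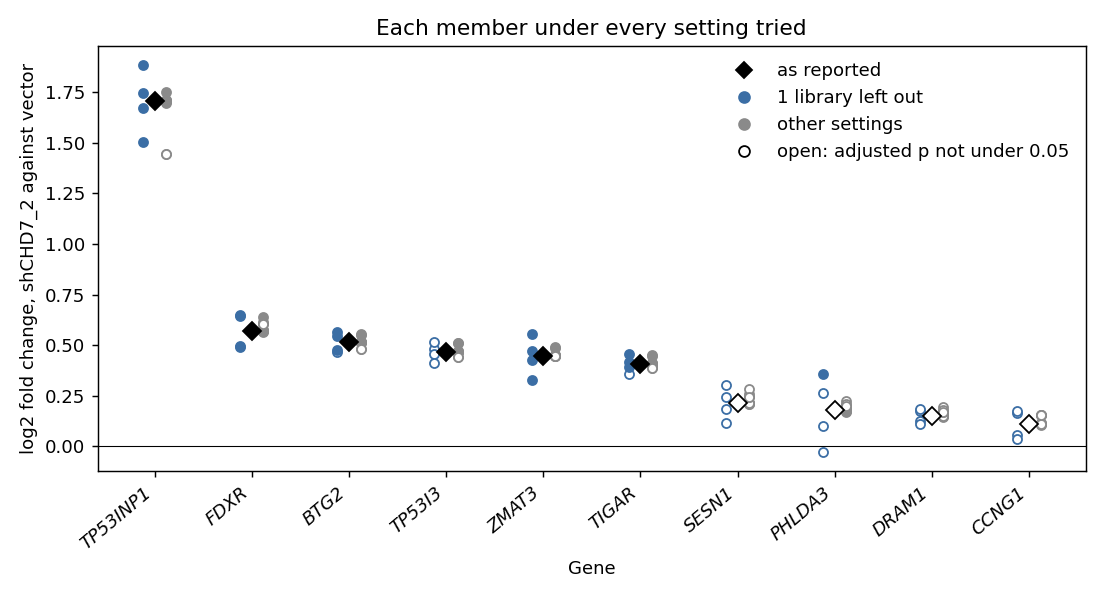
The log2 fold change of each of the 10 genes under every setting, with the reported value as a black diamond, fits without 1 library in blue and other settings in grey. Open symbols have an adjusted p of 0.05 or more. The blue points of PHLDA3 reach from -0.03 to 0.36, while those of TP53INP1 stay between 1.504 and 1.883.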

How the data were processed

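The authors deposited estimated counts (expected counts, not normalized) and FPKM values, normalized by the authors for transcript length and depth, for 15357 genes. The submitters' processing notes name Bowtie2, RSEM, DESeq2 and the build hg38, with no versions or roles, and the annotation is not given in the sources used here. RSEM shares reads between similar genes, so genes with close copies or overlapping exons are less certain. Groups came from the sample labels (2 vector, 2 shCHD7_2). Estimated counts were rounded, filtered with filterByExpr (minimum count 10), scaled by TMM and tested with glmQLFTest of edgeR 4.0.16 in R 4.3.3, with Benjamini-Hochberg adjustment over 11955 genes. Standard errors came from the quasi-likelihood F statistic. Called means an adjusted p under 0.05 and a fold of at least 1.5. For 1 gene, 2 samples against 2 limit an exact two-sided permutation p to 0.333 or more, and that test was not used. Implied length, the estimated count divided by FPKM, was tested with limma 3.58.1. DESeq2 1.42.0, limma on log2(FPKM + 1) or log2(FPKM + 0.1), other scalings and filters, a replicate block and leaving out each library were the alternatives. The scripts were tested on simulated data.

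The genes named are the 10 members, their listed relatives, up to 4 genes with the smallest p past the threshold in each other list, CHD7 and the markers. FAM228B was named after its overlap was seen. Members and lists were chosen with earlier results of these data known. Positions are from GENCODE 29, sequences from RefSeq (GRCh38.p14).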

Additional observations from a re-analysis of the deposited data

How the results depend on the processing

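With 2 samples a group and 15734679 to 16068650 estimated counts a library, small changes are weakly resolved. Among the 10 genes the standard error of the log2 fold change was largest for TP53I3 (0.15) and SESN1 (0.13). BTG2, at counts similar to those of SESN1, had a standard error of 0.12 and a larger change. The 344 genes called became 219 in DESeq2, 141 with no filter, 172 in limma on log2(FPKM + 1) with a mean FPKM of at least 1 and 23 with no filter on low values. The 1373 genes past the adjusted p became 800 in DESeq2, 197 with no filter, 24 in limma on log2(FPKM + 1) with no filter, and 607 to 1727 with 1 library left out, the lowest without the second vector sample. Of the 10 genes 1 was past the adjusted p with no filter and 0 in limma with no filter on low values, where all of these genes missed the adjusted p and 0 were called. In both, more genes of low level entered the test. Of the 10 genes 2 were called with library totals and in limma on log2(FPKM + 1) and log2(FPKM + 0.1) with the filter, and 1 to 2 with 1 library left out, FDXR being the added gene. The cause was not tested.

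The labels number the samples 1 and 2 in each group, but same-numbered samples deviated in opposite directions (correlation -0.25 over 11955 genes, -0.51 over 8777 genes above 4 log2 CPM), so the numbers were not taken as pairs. With the replicate block 755 genes were past the adjusted p and 329 called, 5 of the 10 genes were past it and TP53I3 was not (adjusted p = 0.106, edgeR). The crossed pairing, added after the data were seen, gave 3751 past and 423 called, with 7 of the 10 genes and, of 17 family relatives, 3 higher and 4 lower past it.

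The direction turned for genes that had not passed. PHLDA3 ran from -0.026 to 0.36 on the log2 scale, VAT1 from -0.11 to 0.0078, PFKFB2 from -0.0819 to 0.0152, PHLDA1 from -0.0225 to 0.0137 and TOB2 from -0.0470 to 0.0369 with 1 library left out. With library totals TP53INP2 was at 7.09e-04, PHLDA1 at 0.0395, PFKFB2 at 0.0098 and TOB2 at 0.0415. PHLDA1 was at 0.0386 and TOB2 at 0.0401 in limma on log2(FPKM + 1) with either filter, 0.0390 and 0.0423 with a pseudocount of 0.1, and TOB2 at 5.13e-04 with DESeq2's size factors and 5.01e-04 in DESeq2. The implied length difference of TP53I3 ran from -0.10 to 0.0812 on the log2 scale with 1 library left out. The implied length test passed 0 genes under every alternative (limma).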
